A study of Mus musculus with 12 samples.

Results

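A WT clone of mouse embryonic fibroblasts was compared after 4 passages on laminin (WT L4) and before any (WT L0). The 2 arrays titled as WT L4 and the 2 titled as WT L0 were taken by their titles, which makes 4 of the 12 arrays of the study, and the step was described across 8891 genes. The WT L4 cells carried an unmutated β1 integrin and had been plated 4 times overnight on laminin in a serum-free hybridoma medium, with serum-containing medium returned the next day, before growth on plastic. The WT L0 cells were the same line without these platings. All 4 samples shared strain C57BL/6, the label female, immortalization with the large T antigen of SV40, and DMEM with serum as growth medium. The label of embryonic stage counts up from sample to sample through the series, with E13.5 and E13.6 in WT L4 and E13.11 and E13.12 in WT L0. It is not read here as a difference in stage between the groups. All WT samples carry 1 line code, so the groups stand for a single clone, and laminin, serum-free nights and added time in culture cannot be told apart. The matching arrays of a YYFF clone, whose β1 integrin mutation blocks cell division on matrices that β1 integrins alone can bind, were set against the WT change as those of a mutant line given the same platings, and like all 12 arrays they entered the normalization, the filter and the estimate of spread.

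Integrins are receptors of an α and a β subunit that tie the extracellular matrix to the actin cytoskeleton, and those with the β1 subunit bind laminin, the main glycoprotein of basement membranes. Adhesion through them feeds into the focal adhesion kinase and MAPK pathways, which in fibroblasts bear on matrix production, contractility and passage through the G1 phase. The large T antigen binds the p53 protein and the proteins of the Rb family, so an immortalized line of this kind keeps dividing although both brakes are present.

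Each array was hybridised with RNA amplified from 100 ng. The summed signal was 16047771 and 13916428 on the WT L4 arrays, against 17683779 and 14646570 on the WT L0 arrays, and 10733 to 11372 of 25697 probes were above background. Across genes, the replicates correlated with r = 0.989 in WT L4 and r = 0.991 in WT L0, and arrays of different groups with r = 0.972 to 0.976. Of 12 fibroblast markers on the arrays, 7 (Col1a1, Col3a1, Pdgfra, Pdgfrb, Vim, S100a4 and Twist1) were above background on all 4 arrays, while Thy1 and Fap were on none. Of the defining markers of other cell types, the leukocyte antigen Ptprc, the endothelial Pecam1 and Cdh5, the muscle regulators Myod1 and Myf5 and the epithelial Cdh1 were not above background on any of the 4. Some markers of these and other types were above background, such as Cd14 of the leukocyte list, Acta1 and Tnnc1 of the muscle list and Map2 and Sox2 of the neural list on all 4 arrays, Cldn7 of the epithelial list on 3, and Krt7, Krt19 and Myog on 2. Xist, the noncoding RNA that coats the silenced X chromosome, was above background on all 4 arrays, at 8.21 and 8.06 in WT L4, against 8.61 and 8.67 in WT L0, and fell by 0.50 ± 0.11 on the log2 scale (adjusted p = 0.018), a call lost without WT L4 replicate 2 (adjusted p = 0.0972), without WT L0 replicate 1 (adjusted p = 0.0688) and without WT L0 replicate 2 (adjusted p = 0.092). It was not above background on any of the YYFF L4 or YYFF L0 arrays, although that clone is also labelled female. The Y-linked Uty was above background on all 4 arrays, and on all 12 of the study, although these 4 are labelled female. It had 6.0 and 5.87 in WT L4, against 5.96 and 5.80 in WT L0. These values are little above the lowest signals that count as above background. Its change was 0.05 ± 0.17 (adjusted p = 0.891), and the source of its signal was not tested.

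Values below are normalized log2 signals, in the order of replicates 1 and 2. A change is the WT L4 mean minus the WT L0 mean on the log2 scale, ± is its standard error (SE), n is 2 arrays in each group, and the adjusted p comes from a limma fit with Benjamini-Hochberg adjustment over all 8891 genes. A gene is called changed where this p is under 0.05. By that rule 1376 genes (15.5%) changed, 666 higher in WT L4 (7.49%) and 710 lower (7.99%), while the median over all genes was -0.01. The change was at least 2-fold for 172 higher and 178 lower genes and at least 4-fold for 30 and 30. The count depends on single arrays: it was 851 when WT L4 replicate 2 was left out, and 740 and 843 when WT L0 replicates 1 and 2 were. Past the threshold in the full fit and with any 1 of the 4 arrays left out were 544 genes (6.12%), 276 higher and 268 lower. Both WT L4 arrays lay above both WT L0 arrays for 27% of the genes and below both for 28.5%. The plot of change against level shows these genes at all signal levels.

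**Figure D1:**
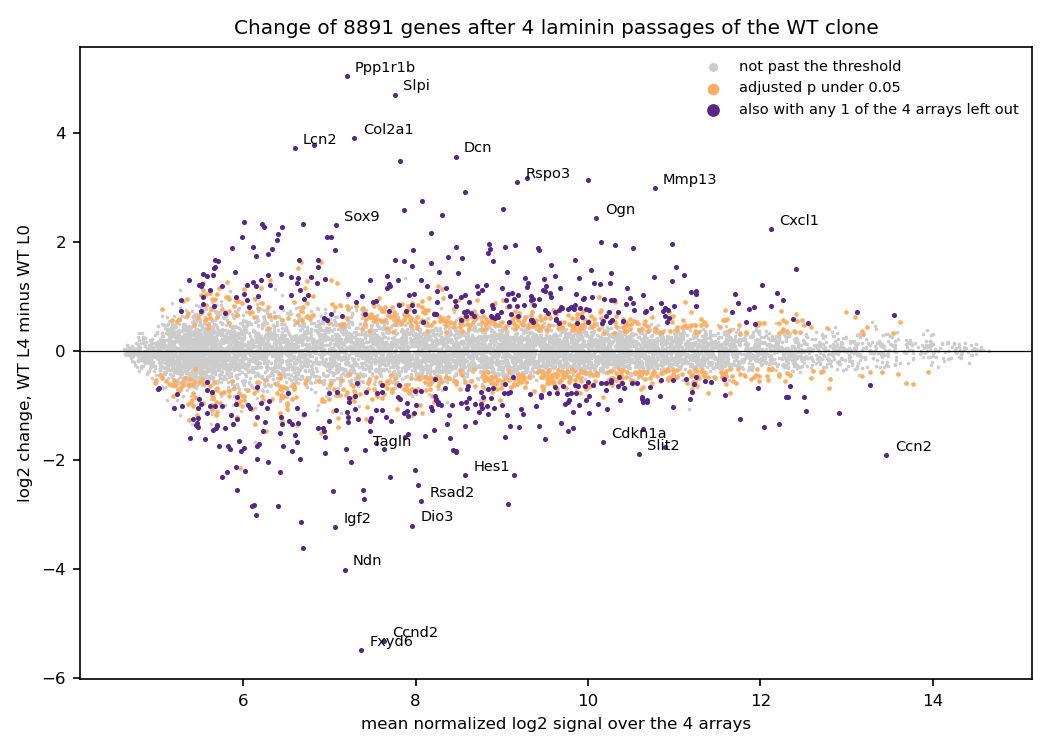
Change of each of 8891 genes, WT L4 minus WT L0 on the log2 scale (vertical axis), against the mean normalized log2 signal over the 4 arrays (horizontal axis). Orange points passed an adjusted p of 0.05 and purple points also passed it with any 1 of the 4 arrays left out; the 666 higher and 710 lower genes lie on both sides of a median of -0.01.

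Itgb1 encodes the β1 subunit that the study varied. Its signal was 8.37 and 8.73 in WT L4, against 9.04 and 9.10 in WT L0, so that both WT L4 arrays lay below both WT L0 arrays. The change was -0.53 ± 0.15 (adjusted p = 0.0427). The call was lost without WT L4 replicate 1 (adjusted p = 0.204), without WT L0 replicate 1 (adjusted p = 0.124) and without WT L0 replicate 2 (adjusted p = 0.161), and its other probe gave -0.45 ± 0.38 (adjusted p = 0.509).

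The sharpest differences were genes past the threshold that were above background on both arrays of 1 group and on neither array of the other. Of the 8891 genes tested, 64 of this kind appeared in WT L4 and 86 were missing from it. Only genes whose lower limit of the fold kept the direction of the change were counted. For these only a lower limit of the fold can be given. Slpi, a secreted inhibitor of neutrophil serine proteases, had 10.11 and 10.10 in WT L4, against 5.26 and 5.56 in WT L0, which is at least 23.6-fold higher (adjusted p = 7.81e-07). Ppp1r1b, an inhibitor of protein phosphatase 1 best known from striatal neurons, had 9.65 and 9.79 in WT L4, against 4.61 and 4.75 in WT L0, at least 18.1-fold higher (adjusted p = 3.88e-08), but its other 2 probes gave 0.17 and 0.62 and did not pass the threshold. Col2a1, the fibrillar collagen of cartilage, had 9.32 and 9.17 in WT L4, against 5.45 and 5.22 in WT L0, at least 13-fold higher (adjusted p = 3.31e-07). All 3 thus had a clear signal on both WT L4 arrays and were at background on both WT L0 arrays.

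The small GTPase Diras2 was at least 9-fold higher (adjusted p = 1.14e-07). Lcn2, a carrier of iron-binding siderophores, had 8.48 and 8.44 in WT L4, against 4.75 and 4.72 in WT L0, at least 7.55-fold higher (adjusted p = 4.95e-08). The acute phase protein Saa3 was at least 4.13-fold higher (adjusted p = 3.71e-05), the phospholipid scramblase Plscr4 at least 3.59-fold higher (adjusted p = 5.59e-06) and the integrin subunit Itgb7 at least 3.56-fold higher (adjusted p = 0.000205). In the other direction the leading gene was Ccnd2, the D-type cyclin that activates CDK4 and CDK6 in G1, with 5.0 and 4.95 in WT L4, against 10.08 and 10.50 in WT L0, at least 25.6-fold lower (adjusted p = 2.83e-06). Fxyd6, a regulator of the sodium-potassium pump, had 4.67 and 4.59 in WT L4, against 10.15 and 10.08 in WT L0, at least 22.8-fold lower (adjusted p = 2.01e-08). Ndn, the imprinted growth suppressor necdin, had 5.32 and 5.03 in WT L4, against 9.23 and 9.13 in WT L0, at least 11.9-fold lower (adjusted p = 1.14e-07). These 3 were clear in WT L0 and at background on both WT L4 arrays. Gpc3, a cell surface heparan sulfate proteoglycan, was at least 7.4-fold lower (adjusted p = 1.77e-07) and Fam181b at least 6.18-fold lower (adjusted p = 2.02e-06). The lysosomal protease Ctsh was at least 4.63-fold lower (adjusted p = 1.07e-05), the growth factor carrier Igfbp2 at least 4.12-fold lower (adjusted p = 1.82e-06) and the ligand Wnt7a at least 3.8-fold lower (adjusted p = 2.2e-06). Of all 12 arrays, Lcn2 was above background only on the 2 of WT L4. Ndn, Gpc3, Fam181b, Ctsh, Igfbp2 and Wnt7a were so only on the 2 of WT L0. These genes passed the filter of at least 2 arrays only through the group where they are high, so their adjusted p adds no support.

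**Figure D2:**
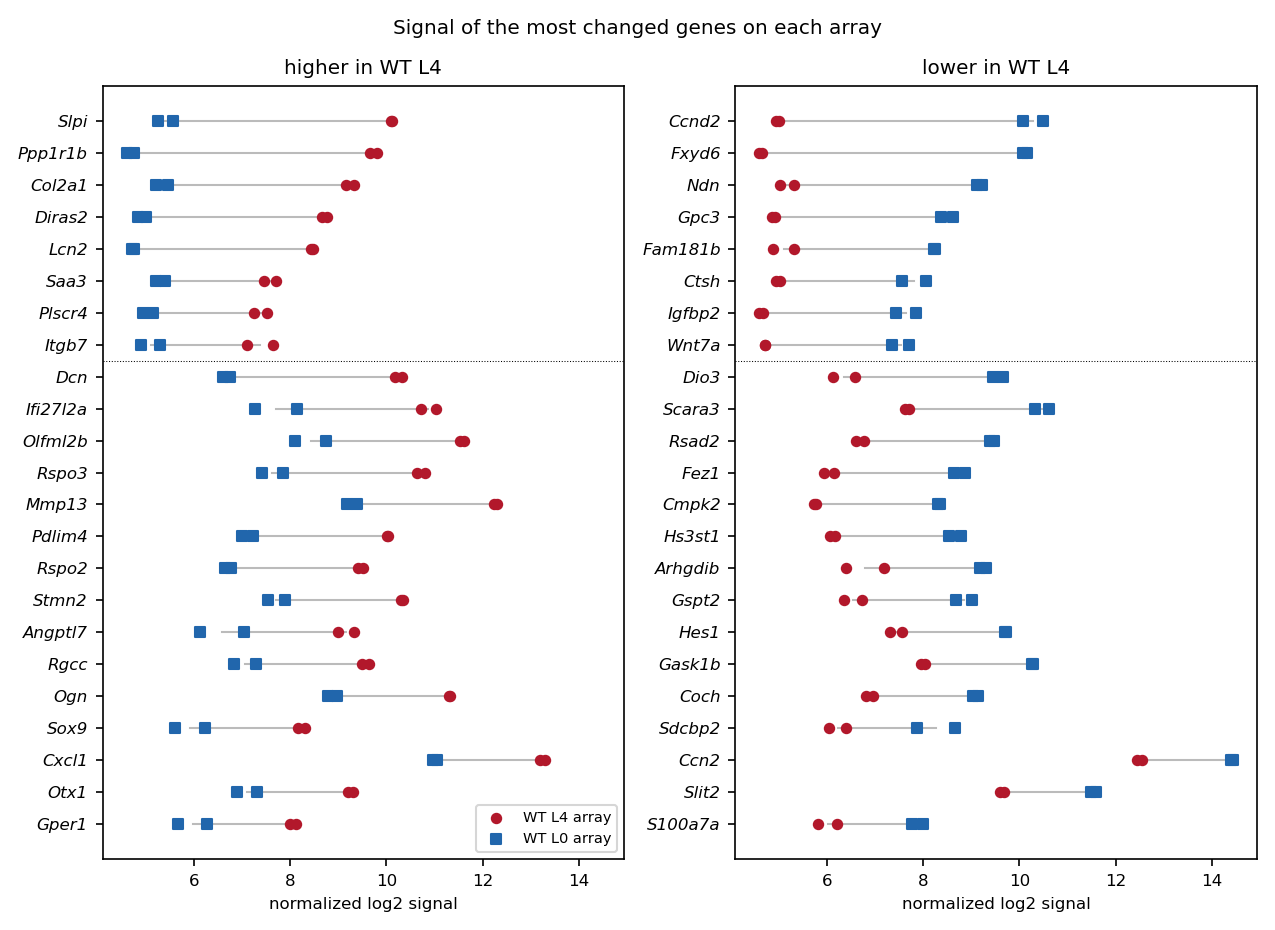
Normalized log2 signal (horizontal axis) on each WT L4 array (red circles) and each WT L0 array (blue squares) for the most changed genes, higher in WT L4 on the left and lower on the right; lines join the group means. Above the dotted line are genes above background in only 1 of the groups, and below it genes above background on all 4 arrays. In none of the genes drawn do the groups overlap, which follows from their choice by size of change. Among all genes, both WT L4 arrays lay above both WT L0 arrays for 27% and below both for 28.5%.

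Among genes measured on all 4 arrays, the largest rise was that of Dcn, the collagen-binding proteoglycan decorin, with 10.31 and 10.18 in WT L4, against 6.61 and 6.76 in WT L0 and a change of 3.56 ± 0.10 (adjusted p = 1.14e-07). Olfml2b, an olfactomedin-domain protein, rose by 3.14 ± 0.18, the LIM-domain protein Pdlim4 by 2.91 ± 0.18 and the microtubule regulator Stmn2 by 2.61 ± 0.15. Rises of 2.58 to 2.08 were seen for Angptl7, Rgcc and Gper1, a membrane receptor for estrogen. The homeobox gene Otx1, known from forebrain development, had 9.20 and 9.31 in WT L4, against 6.90 and 7.30 in WT L0 and rose by 2.16 ± 0.15. The largest fall was that of Dio3, the deiodinase that inactivates thyroid hormone, with 6.13 and 6.59 in WT L4, against 9.46 and 9.67 in WT L0 and a change of -3.20 ± 0.16 (adjusted p = 3.46e-06). Scara3, a scavenger receptor family member, changed by -2.80 ± 0.12, the axonal transport adaptor Fez1 by -2.71 ± 0.15 and the heparan sulfate sulfotransferase Hs3st1 by -2.55 ± 0.11. Hes1, a repressor that Notch signalling induces, had 7.56 and 7.32 in WT L4, against 9.71 and 9.73 in WT L0, a change of -2.28 ± 0.12 (adjusted p = 4.02e-06). Falls between -2.46 and -1.86 were found for Arhgdib, Gspt2, Gask1b, Coch, Sdcbp2 and S100a7a.

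Genes of the extracellular matrix moved in both directions. Counts of list members, here and below, stand beside the 7.49% of all tested genes that were higher and the 7.99% that were lower. All 3 changed members of the small leucine-rich proteoglycans, which bind collagen fibrils, were higher in WT L4, of 6 tested, with a list median of 1.41 against -0.01 for all genes. Beside Dcn these were Ogn, osteoglycin, with 11.30 and 11.32 in WT L4, against 8.79 and 8.97 in WT L0 (change 2.43 ± 0.10), and Prelp, with 9.43 and 9.69 in WT L4, against 5.10 and 7.08 in WT L0 (change 3.47 ± 0.48). The WT L0 arrays of Prelp lay far apart, and only 1 of them was above background. Of 24 interstitial matrix genes, 5 were higher and 3 lower. Mfap2, a protein of elastic microfibrils, had 9.71 and 9.76 in WT L4, against 8.02 and 7.85 in WT L0 and rose by 1.80 ± 0.12. Lox, the enzyme that crosslinks collagen and elastin, rose by 1.04 ± 0.10, the collagen VI chain Col6a1 by 1.09 ± 0.14 and the elastin interface protein Emilin1 by 0.68 ± 0.12. The collagen I chain Col1a1 had 7.79 and 7.80 in WT L4, against 8.68 and 8.76 in WT L0 and fell, with a change of -0.93 ± 0.15 (adjusted p = 0.00368). Fbln2, fibulin 2, was also lower (-0.85 ± 0.15).

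Of 22 tested metalloproteinases and inhibitors, which set the breakdown of matrix, 6 were higher and 1 lower, a total of 4 without replicate 1 of WT L4 or of WT L0. Mmp13, a collagenase, had 12.30 and 12.23 in WT L4, against 9.38 and 9.18 in WT L0 and a change of 2.98 ± 0.19 (adjusted p = 1.54e-05). A second probe of Mmp13 gave 2.74 ± 0.13 and another, dimmer one 0.34 ± 0.30 (adjusted p = 0.539). Mmp3, a stromelysin that cleaves proteoglycans and activates collagenases, had 11.62 and 11.96 in WT L4, against 10.13 and 10.38 in WT L0 and rose by 1.53 ± 0.16. The inhibitor Timp3, which is held in the matrix, rose by 1.06 ± 0.10, and the inhibitor Timp1 was the lower member, at -0.59 ± 0.12 (adjusted p = 0.0126), a call lost without WT L4 replicate 1 (adjusted p = 0.0574), without WT L4 replicate 2 (adjusted p = 0.0539), without WT L0 replicate 1 (adjusted p = 0.0518) and without WT L0 replicate 2 (adjusted p = 0.073). Of 12 genes of serine protease inhibitors and the plasminogen system, 3 were higher and 3 lower, which came to 3 in all without WT L4 replicate 2. The activator Plau, urokinase, rose by 0.95 ± 0.15. Its inhibitor Serpinb2 had 4.59 and 4.59 in WT L4, against 6.34 and 6.02 in WT L0 and was at least 1.49-fold lower (adjusted p = 0.000457), with no WT L4 array above background.

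Of 12 integrin subunits tested, 2 were higher and 2 lower. Itga11, the collagen-binding α11 subunit, had 6.57 and 7.05 in WT L4, against 5.05 and 4.80 in WT L0, at least 2.41-fold higher (adjusted p = 0.000175). Itga3, the α3 subunit of a laminin receptor, had 9.04 and 9.46 in WT L4, against 10.27 and 10.19 in WT L0 and fell, with a change of -0.98 ± 0.16 (adjusted p = 0.00416). Of 14 basement membrane genes 3 were higher and 2 lower, a total of 3 without WT L4 replicate 2 and 2 without either WT L0 array. Among them Nid2, the laminin-binding nidogen 2, had the largest change, with 6.78 and 6.63 in WT L4, against 8.54 and 8.24 in WT L0 (-1.69 ± 0.13). Of 17 focal adhesion adaptors none was higher and 2 were lower, or 11.8%, beside 15.5% of all genes that changed. Among the 2 was Lims2, a LIM-domain partner of the integrin-linked kinase, at -1.16 ± 0.11. The other adaptor was lost when any array except WT L4 replicate 2 was left out.

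Targets of the serum response and YAP factors and contractile genes had 1 higher and 8 lower members of 25 tested and a median of -0.23. Ccn2, connective tissue growth factor, had 12.56 and 12.45 in WT L4, against 14.45 and 14.39 in WT L0 and a change of -1.91 ± 0.09 (adjusted p = 3.02e-06). Tagln, the actin-binding protein transgelin, had 6.41 and 6.60 in WT L4, against 8.23 and 8.41 in WT L0 and a change of -1.82 ± 0.13 (adjusted p = 2.75e-05). The tropomyosin Tpm2 changed by -1.01 ± 0.16. Only these 3 of the 8 lower members stayed past the threshold with any 1 array left out, and the count of 9 changed members was 5 when either WT L4 array was left out, and 3 and 4 when WT L0 replicates 1 and 2 were.

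Among secreted signals, the Wnt pathway held 4 higher and 3 lower members of 25 tested, all 7 past the threshold with any 1 array left out. Rspo3 and Rspo2, R-spondins that potentiate Wnt signalling by sparing its receptors from degradation, were both higher. Rspo3 had 10.81 and 10.64 in WT L4, against 7.84 and 7.42 in WT L0 and rose by 3.09 ± 0.16 (adjusted p = 3.95e-06). Rspo2 had 9.40 and 9.50 in WT L4, against 6.64 and 6.77 in WT L0 and rose by 2.75 ± 0.20 (adjusted p = 3.96e-05). Sfrp2, a secreted Wnt binding protein, had 9.92 and 10.78 in WT L4, against 8.47 and 8.54 in WT L0 and rose by 1.84 ± 0.27, and the ligand Wnt5b was at least 1.46-fold higher (adjusted p = 0.000215). Axin2, a feedback inhibitor that β-catenin induces in many cells, had 5.19 and 5.05 in WT L4, against 7.07 and 6.72 in WT L0, at least 2.44-fold lower (adjusted p = 0.000109). The ligand Wnt5a was at least 1.97-fold lower (adjusted p = 1.5e-05), and Wnt7b, above background on 1 of 2 WT L4 arrays, changed by -1.46 ± 0.13. Wnt7a, described above, is a ligand that this list of 25 does not hold. The ligands and the R-spondins thus did not move as 1 group.

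In the TGF-β and BMP family 6 members were higher and 3 lower of 28 tested. Tgfbi, an extracellular protein that TGF-β induces, had 11.84 and 12.06 in WT L4, against 9.72 and 10.29 in WT L0 and rose by 1.95 ± 0.17 (adjusted p = 0.000135). The ligand Tgfb2 had 8.54 and 8.90 in WT L4, against 7.63 and 7.20 in WT L0 and rose by 1.31 ± 0.17. Nbl1, a BMP antagonist, rose by 1.36 ± 0.12, and the joint-forming BMP ligand Gdf5 was at least 1.52-fold higher (adjusted p = 0.00201). Inhba, the activin A subunit, was lower at 9.33 and 9.20 in WT L4, against 10.38 and 10.39 in WT L0 (-1.12 ± 0.12).

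Of 12 tested genes of the insulin-like growth factor system 5 were lower and 1 higher, with a median of -0.54. Igf2, the fetal growth factor, had 5.59 and 5.32 in WT L4, against 8.72 and 8.64 in WT L0, a change of -3.22 ± 0.12 (adjusted p = 7.07e-07), and only 1 WT L4 array was above background. Igf2r, the receptor that clears IGF2, fell, with a change of -0.88 ± 0.13, and Igfbp2 was among the genes lost to background. Htra1, a protease of the matrix, was the member that rose (0.90 ± 0.15).

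Of 31 other growth factors and receptors 6 were higher and 8 lower, and 2 to 3 were higher with 1 of the 4 arrays left out, the fewest without WT L0 replicate 1. Ptn, the heparin-binding cytokine pleiotrophin, had 11.20 and 11.10 in WT L4, against 9.14 and 9.17 in WT L0 and rose by 2.0 ± 0.22 (adjusted p = 0.000429). Fgf10, a mesenchymal ligand that signals to epithelium, rose by 0.82 ± 0.10. Vegfc, the growth factor of lymphatic vessels, had 7.47 and 7.74 in WT L4, against 9.22 and 9.18 in WT L0 and a change of -1.60 ± 0.14 (adjusted p = 0.000127). The EGF receptor ligand Hbegf changed by -1.41 ± 0.13, and the neurotrophic factors Bdnf and Gdnf by -0.94 ± 0.10 and -0.91 ± 0.13. Of 17 feedback genes of MAPK signalling none was higher and 3 were lower. That is 17.6%, not far from the 15.5% of all genes that changed, of which 7.99% were lower genes. Dusp1, a phosphatase that switches MAP kinases off, had 11.31 and 11.39 in WT L4, against 12.75 and 12.72 in WT L0, a change of -1.39 ± 0.10 (adjusted p = 2.65e-05).

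Axon guidance genes, which in fibroblasts steer adhesion and migration, changed in 14 of 29 tested members, 5 higher and 9 lower. Most of the 5 higher ones and some of the 9 lower ones did not stay past the threshold in every fit with 1 array left out. Slit2, the repellent ligand of Robo receptors, had 9.60 and 9.68 in WT L4, against 11.60 and 11.48 in WT L0 and a change of -1.90 ± 0.13 (adjusted p = 2.08e-05). The semaphorins Sema7a and Sema5a were at least 2.6-fold lower (adjusted p = 0.00034) and at least 2.92-fold lower (adjusted p = 0.000354), with no WT L4 array above background. Epha3, an ephrin receptor, had 7.41 and 7.39 in WT L4, against 5.57 and 5.18 in WT L0 and rose by 2.03 ± 0.20, with 1 of 2 WT L0 arrays above background. The netrin receptors Unc5b and Unc5c fell, with changes of -0.93 ± 0.14 and -1.0 ± 0.17.

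Targets of p53, the transcription factor of the DNA damage response, were mostly lower where they changed. Of 26 tested, 12 were lower and 2 higher, the median was -0.35, and 9 of the 12 passed with any 1 array left out, beside a background of 7.99% lower genes. Cdkn1a, the CDK inhibitor p21, had 9.40 and 9.28 in WT L4, against 10.95 and 11.08 in WT L0 and a change of -1.67 ± 0.15 (adjusted p = 0.000117). Its other 2 probes gave -1.46 ± 0.27 and -1.25 ± 0.16. Pmaip1, the BH3-only death protein Noxa, had 5.26 and 5.29 in WT L4, against 7.35 and 7.27 in WT L0, at least 3.26-fold lower (adjusted p = 7.13e-05). Mdm2, the ubiquitin ligase that limits p53, had 10.82 and 10.68 in WT L4, against 11.63 and 11.63 in WT L0 and a change of -0.88 ± 0.12 (adjusted p = 0.00122). Trp53inp1, Ccng1, Zmat3 and Phlda3, which act in p53-linked stress responses, lay between -1.57 and -1.13, and the epoxide hydrolase Ephx1 changed by -1.61 ± 0.09. Sesn1, a sestrin that restrains mTORC1, was a higher member (0.63 ± 0.10). The other was Cd82, a tetraspanin, with 1.13 ± 0.28 (adjusted p = 0.028), a call lost without WT L4 replicate 1 (adjusted p = 0.116), without WT L4 replicate 2 (adjusted p = 0.0783) and without WT L0 replicate 1 (adjusted p = 0.0668).

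Among the genes that govern the G1 phase, 6 of 21 tested were higher and 5 lower. The 11 became 5 without replicate 1 of WT L4 or of WT L0, 6 without WT L4 replicate 2 and 7 without WT L0 replicate 2, with 2 to 3 higher members, and median scaling left 1 higher and 3 lower. The 3 D-type cyclins were all among the lower ones. Ccnd1 had 12.33 and 12.37 in WT L4, against 13.45 and 13.51 in WT L0, a change of -1.13 ± 0.11 (adjusted p = 0.000177), and Ccnd2 fell to background as described. Ccnd3 changed by -0.45 ± 0.10 (adjusted p = 0.0131), a call lost without WT L4 replicate 1 (adjusted p = 0.0731), without WT L0 replicate 1 (adjusted p = 0.076) and without WT L0 replicate 2 (adjusted p = 0.055). The CDK4 and CDK6 inhibitor Cdkn2c, p18, had 11.05 and 11.01 in WT L4, against 9.88 and 9.87 in WT L0 and rose by 1.16 ± 0.11 (adjusted p = 0.000191). E2f1, an S-phase transcription factor that Rb binds, had 12.02 and 12.04 in WT L4, against 11.31 and 11.32 in WT L0 and rose by 0.71 ± 0.10 (adjusted p = 0.00226). Of 33 DNA replication genes 1 was higher and none lower (3.03% changed), beside 15.5% of all genes. Of 28 mitosis and cytokinesis genes 2 were higher and 2 lower (14.3%), near the share of all genes. Pdcd6ip, the abscission adaptor Alix, was the one of these 5 that passed with any 1 array left out (-0.77 ± 0.14).

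Interferon-induced antiviral genes formed the list with the most lower members, 16 of 33 tested, with 2 higher and a median of -0.57. Of the 16, 10 passed with any 1 array left out, and without WT L0 replicate 1 the list held 10 lower members. Rsad2, the antiviral enzyme viperin, had 6.60 and 6.78 in WT L4, against 9.48 and 9.39 in WT L0 and a change of -2.75 ± 0.13 (adjusted p = 2.91e-06). Cmpk2, a nucleotide kinase whose gene lies next to Rsad2 with 0 protein-coding genes between them in RefSeq, had 5.73 and 5.79 in WT L4, against 8.30 and 8.35 in WT L0 and a change of -2.57 ± 0.11 (adjusted p = 1.82e-06). Isg15, a ubiquitin-like modifier, had 12.20 and 11.99 in WT L4, against 13.03 and 12.84 in WT L0 and a change of -0.84 ± 0.14 (adjusted p = 0.0037). Its deconjugating enzyme Usp18 changed by -0.84 ± 0.11, the poly-ADP-ribose polymerase Parp14 by -1.16 ± 0.16 and the RNA-binding protein Ifit3 by -0.57 ± 0.09. The oligoadenylate synthetases Oasl1 and Oas1g, sensors of double-stranded RNA or their relatives, changed by -1.17 ± 0.12 and -1.06 ± 0.11, and Oas1a, above background on 1 of 2 WT L4 arrays, by -1.20 ± 0.17. Stat2, a subunit of the interferon-activated transcription factor, had 7.62 and 7.41 in WT L4, against 8.84 and 8.45 in WT L0 and a change of -1.13 ± 0.26 (adjusted p = 0.0194), a call lost without WT L4 replicate 1 (adjusted p = 0.0544), without WT L4 replicate 2 (adjusted p = 0.0969) and without WT L0 replicate 1 (adjusted p = 0.119).

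The factor that holds STAT2 binds the interferon-stimulated response element, searched here as GAAA, any 2 bases and GAAA again, on both strands in the 250 bases before each gene start (RefSeq, GRCm38.p6). It occurred in 936 of 27025 genes with such a window (3.46%), in 6 of 12 lower interferon genes (50.0%) and in 3 of 13 tested interferon genes that were not lower (23.1%). The list was made of interferon-induced genes, so a share above that of all genes follows from its making. The difference between lower and other members was not tested. Stretches of 5 of these 6 windows are shown to let the matches of the lower genes be compared. The window left out is that of Oas1g, whose stretch repeats the letters of Oas1a, so these 2 are not separate cases. Each line gives the strand of the gene, 5′ to 3′, with only the match nearest to the gene start in capitals. Further, overlapping matches lie partly or wholly in the small letters of Isg15 and Oas1a. A match is a description of letters, and binding was not measured.
Rsad2, chr12:26456538-26456597, minus strand: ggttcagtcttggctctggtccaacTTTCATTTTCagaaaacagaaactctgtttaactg
Isg15, chr4:156200850-156200909, minus strand: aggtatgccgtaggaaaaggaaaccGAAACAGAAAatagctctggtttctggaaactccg
Ifit3, chr19:34583382-34583441, plus strand: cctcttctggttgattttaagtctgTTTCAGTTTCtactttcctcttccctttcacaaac
Stat2, chr10:128270251-128270310, plus strand: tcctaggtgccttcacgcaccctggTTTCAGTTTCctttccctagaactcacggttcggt
Oas1a, chr5:120907526-120907564, minus strand: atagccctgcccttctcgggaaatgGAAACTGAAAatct

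The match in capitals runs forward in Isg15 and Oas1a and in reverse in Rsad2, Ifit3 and Stat2, 4 to 212 bases before the start. Cmpk2, with a change like that of Rsad2, had no match in its window. Both higher members belong to the Ifi27 family of small hydrophobic proteins. Ifi27l2a had 10.71 and 11.03 in WT L4, against 7.26 and 8.15 in WT L0 and rose by 3.17 ± 0.29 (adjusted p = 0.000151), and Ifi27 rose by 0.93 ± 0.17. They stood against the direction of the other changed members on both WT L4 arrays.

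Related immune lists were also lower in part. Of 7 interferon-inducible GTPases, which attack pathogen vacuoles, 4 were lower and none higher, a count of 2 without WT L4 replicate 2, 1 without any other of the 4 arrays and 0 when these arrays were fitted alone. Of these Gbp7 was at least 1.43-fold lower (adjusted p = 0.00436). Of 15 genes of MHC class I and antigen processing 5 were lower and 3 higher. No member was higher with median scaling, with the 4 arrays fitted alone or without WT L4 replicate 1 or either WT L0 array, and 3 to 5 were lower with 1 array left out. Tap2, a subunit of the peptide transporter, had 6.24 and 6.17 in WT L4, against 7.70 and 7.64 in WT L0 and a change of -1.46 ± 0.15 (adjusted p = 0.000216). Nlrc5, the transactivator of class I genes, changed by -1.98 ± 0.24, with 1 of 2 WT L4 arrays above background, and the immunoproteasome subunit Psmb9 by -0.76 ± 0.14.

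Chemokines and cytokines were more mixed, with 5 higher and 2 lower of 16 tested. Cxcl1, a neutrophil attractant, averaged 13.24 ± 0.08 in WT L4 and 11.01 ± 0.06 in WT L0 (SD, n = 2 arrays each), with both WT L4 arrays above both WT L0 arrays, and rose by 2.24 ± 0.11 (adjusted p = 2.91e-06). Ppbp, another chemokine of the same CXC class, had 11.34 and 11.23 in WT L4, against 9.38 and 9.30 in WT L0 and rose by 1.95 ± 0.12 (adjusted p = 1.4e-05). The monocyte attractants Ccl2 and Ccl7 rose by 1.30 ± 0.18 and 1.05 ± 0.19. Il11, a cytokine of the IL-6 family, was lower, at 6.01 and 5.78 in WT L4, against 7.51 and 6.96 in WT L0 (-1.34 ± 0.19). Of the 10 leukocyte markers on the array only Cd14 was above background on any of the 4 arrays, and the summed linear signal of the 10 was 606 and 529 in WT L4, against 447 and 434 in WT L0; its part in the chemokine values was not tested.

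Several lists tied to developmental identity held changed members. Of 15 imprinted genes, expressed from 1 parental allele, 7 were lower and 1 higher, with a median of -0.56. Beside Ndn, Igf2, Dio3 and Igf2r, the lower ones included Snrpn, a splicing protein of the Prader-Willi region, with 8.10 and 8.24 in WT L4, against 9.26 and 9.33 in WT L0 (-1.12 ± 0.12), and the growth adaptor Grb10 (-0.67 ± 0.10). The higher one was Dcn, which is imprinted in mouse placenta. Of 21 Hox genes, which set position along the body axis, none was higher and 4 were lower. That is 19%, not far from the 15.5% of all genes that changed, of which 7.99% were lower genes. Only 2 of the 4, Hoxa5 and Hoxa7, passed with any 1 array left out. Hoxa5 had 6.02 and 6.31 in WT L4, against 7.40 and 7.74 in WT L0 and a change of -1.40 ± 0.18 (adjusted p = 0.00101), and Hoxa7 changed by -1.14 ± 0.12. Among 27 mesenchymal transcription factors and cadherins 7 were higher and 4 lower. Most of the 7 higher ones did not stay past the threshold in every fit with 1 array left out. Osr2, a factor of limb and palate, had 10.88 and 11.09 in WT L4, against 9.52 and 9.58 in WT L0 and rose by 1.43 ± 0.14 (adjusted p = 0.000223). Foxd1, a factor of kidney stroma, was at least 2.24-fold lower (adjusted p = 0.000192), Msx2, a homeobox factor of skull and limb, at least 1.85-fold lower (adjusted p = 8.8e-05), and Foxc2 changed by -1.56 ± 0.25.

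Of 5 tested cartilage and bone markers 2 were higher. Sox9, the master factor of cartilage, had 8.16 and 8.30 in WT L4, against 6.23 and 5.60 in WT L0 and rose by 2.31 ± 0.22 (adjusted p = 0.000171), together with its known target Col2a1. The cartilage proteoglycan Acan had 7.33 and 8.07 in WT L4, against 6.43 and 7.0 in WT L0, and its change of 0.98 ± 0.31 (adjusted p = 0.063) did not pass, although it did in 5 of 13 alternatives, which gave 0.61 to 1.35. Comp and Matn1 of cartilage and Ibsp, Sp7 and Dmp1 of bone were not above background on any of the 4 arrays. Over the 11 markers of this list on the array, the summed linear signal was 1395 and 1449 in WT L4, against 465 and 485 in WT L0. Col2a1 and Sox9 had the brightest signals of these markers in WT L4, so the sum mostly restates their rise and is not a separate result. Gap43, a growth cone protein, was at least 2.85-fold lower (adjusted p = 0.000211), and the keratin Krt19 at least 1.44-fold lower (adjusted p = 0.0019).

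Lists of basic cell functions differed in how many members changed, beside 15.5% of all genes. Among 46 respiratory chain genes 1 was higher and none lower, among 28 proteasome subunits 1 higher and none lower, and among 43 cytosolic ribosomal proteins none higher and 2 lower. Among 29 lysosome and autophagy genes only Ctsh changed. Of 17 cholesterol synthesis genes 3 were higher and none lower. Hmgcs1, the enzyme that forms HMG-CoA, had 12.60 and 12.48 in WT L4, against 11.83 and 11.61 in WT L0 and rose by 0.82 ± 0.14 (adjusted p = 0.00464). Of 25 glycolysis and hypoxia genes 5 were higher and 2 lower. Pdk1, a kinase that inhibits pyruvate dehydrogenase, rose by 1.01 ± 0.16 and Ndrg1, a stress-induced protein, by 0.93 ± 0.11, while Adm, the vasodilator adrenomedullin, was at least 1.72-fold lower (adjusted p = 0.00125). Of 34 genes of the NRF2 and glutathione systems 7 were higher and 2 lower, led by the glutathione transferase Gstm1 (1.05 ± 0.20) and including the sulfiredoxin Srxn1 (0.71 ± 0.10). Of 18 fatty acid synthesis genes 2 were higher and 2 lower, of 7 glycolipid-anchored proteins of the Ly6 kind 2 higher and 1 lower, and of 10 S100 calcium-binding proteins 2 higher and 1 lower, with S100a1 rising by 1.32 ± 0.18. Of 22 heat shock proteins and chaperones none was higher and 2 were lower, and of 25 genes of the unfolded protein and integrated stress responses 1 was higher and 4 lower. Smarca2, an ATPase of chromatin remodelling complexes, changed by -1.0 ± 0.10 and the mRNA-binding protein Igf2bp1 by -0.99 ± 0.16, the lower ones of 22 chromatin genes and their relatives, of which 1 was higher. With 1 of the 4 arrays left out, 3 to 6 members changed in the glycolysis list and 3 to 6 in the NRF2 list, 1 to 3 in fatty acid synthesis, 1 to 4 in the unfolded protein list and 1 to 4 among chaperones, with the fewest in the first 3 of these lists without WT L0 replicate 1. The plot of changed members by list sets these shares beside those of all genes.

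**Figure D3:**
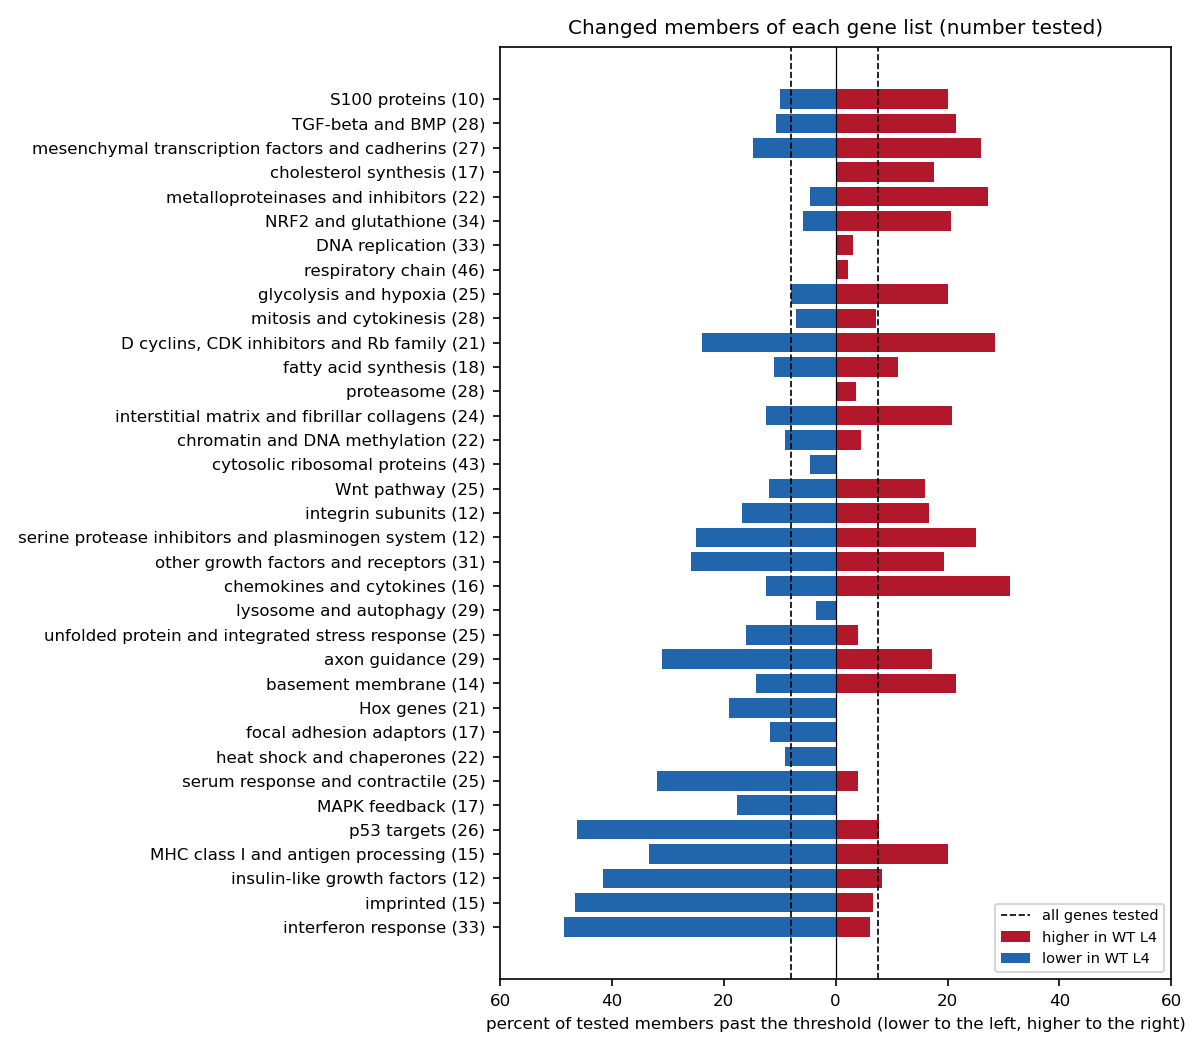
Percent of the tested members of each gene list with at least 10 tested members, cell type markers left out, that passed an adjusted p of 0.05, lower in WT L4 to the left and higher to the right, with the number tested in brackets and dashed lines at the shares of all genes, 7.99% lower and 7.49% higher. The interferon, imprinted, insulin-like growth factor and p53 lists reach furthest to the lower side of those drawn, and the respiratory chain, proteasome and ribosomal lists stay inside the dashed lines.

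Because aneuploidy is named in the title of the study, the changes were also counted by chromosome, using RefSeq only for the chromosome and order of genes. Chromosomes 9, 12, 15, 18 and 19 are described because of their values, so no test is given. On chromosome 12, 55 of 285 tested genes were lower and 11 higher, and the median log2 difference from the WT L0 mean was -0.24 on WT L4 replicate 1 and -0.20 on replicate 2. On chromosome 15, 59 of 381 were higher and 16 lower, with medians of 0.12 and 0.15. Both arrays thus lay on the same side in each case. On chromosome 9, 66 of 522 were lower and 22 higher, with medians of -0.12 and -0.11. On chromosome 18, 31 of 204 were lower and 16 higher, with medians of -0.11 and -0.09. On chromosome 19, 26 of 326 were higher and 22 lower, with medians of 0.07 and 0.10. The difference between the WT L0 arrays, replicate 1 minus replicate 2, had medians of 0.01 to 0.05 on these 5 chromosomes.

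The lower genes of chromosome 12 were spread along it. When its tested genes were split by order into 5 stretches of 57, each held 8 to 12 lower and 0 to 3 higher genes. Chromosome 15 held 10 to 13 higher genes in each of its 5 stretches, and the last, from Amigo2 to Itga5, had 13 higher and 0 lower of 77. On chromosome 9 the second stretch, from Ei24 to Fam219b, had 17 lower and 0 higher of 104. On chromosome 19 the first stretch, from Ppp6r3 to Sipa1, had 8 higher and 0 lower of 65. In YYFF L4 against YYFF L0 the medians were -0.07 on chromosome 12 and 0.23 on chromosome 15.

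**Figure D4:**
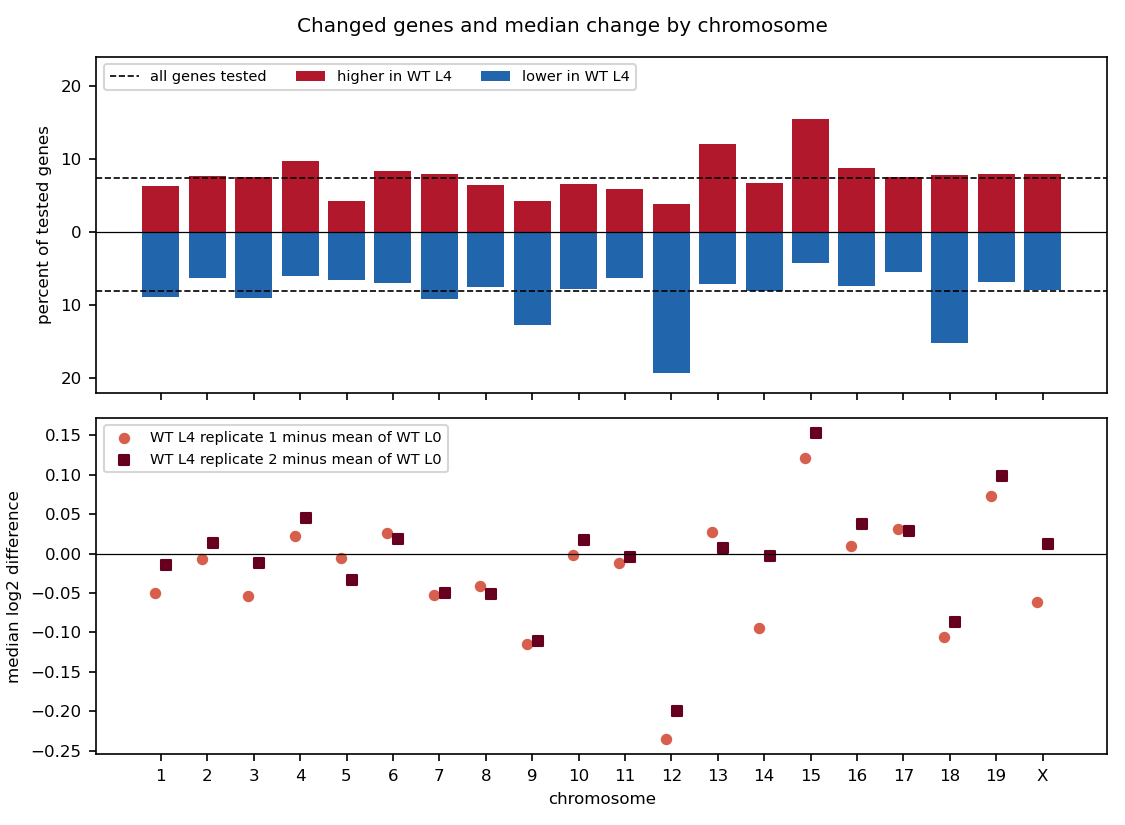
Upper panel: percent of tested genes higher (red, up) and lower (blue, down) in WT L4 on each chromosome, with dashed lines at the shares of all genes. Lower panel: median log2 difference of each WT L4 array from the WT L0 mean; both arrays are below -0.10 on chromosomes 9 and 12 and above 0.10 on chromosome 15.

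Not all of the early changes were found at the same level after 8 laminin passages (WT L8), whose arrays entered the fit but not the comparison. Slpi had 9.94 and 10.13 in WT L8, near its WT L4 signal, and Sox9 had 8.38 and 8.30. Lcn2 had 4.80 and 4.74 and Saa3 5.01 and 5.06, again not above background on either array. Col2a1 had 5.96 and 5.79, Mmp13 7.41 and 7.39 and Ifi27l2a 6.64 and 7.12 in WT L8, and all 3 were thus below both of their WT L4 arrays. Among the lower genes, Ndn and Ccnd2 stayed low, at 4.92 and 4.86 and 5.61 and 5.71, whereas Dio3 had 7.85 and 7.98. Isg15 had 6.67 and 6.94, below its WT L4 signal. These levels are given as description, with no test.

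The YYFF clone went through the same platings, and the difference between the clones in the L4 change was tested as an interaction. By itself, YYFF L4 against YYFF L0 gave 2803 changed genes (31.5%), 17.2% of all genes being lower. The interaction passed for 2109 genes (23.7%), 1191 with a more positive WT change (13.4%) and 918 with a more negative one (10.3%). Of the 1376 genes changed in WT, 768 also differed between the clones in this test. Opposite calls in WT and YYFF were found for 297 genes, and all of them passed the interaction. That outcome adds no support, because called changes of opposite sign in the same fit add up in this test. Of the 297, 189 were higher in WT L4 and lower in YYFF L4, and 108 the reverse. A further 328 genes passed the interaction and were not called in YYFF. Of the 768, 52 were not above background on any YYFF L4 or YYFF L0 array, so that their YYFF change was not measured.

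Rspo3 is a case of opposite change. It rose in WT by 3.09 ± 0.16 and changed in YYFF by -4.74 ± 0.16, a difference of 7.83 ± 0.22 (adjusted p = 1.45e-07), with 1 of 2 YYFF L4 arrays above background. Mmp13 changed by 2.98 ± 0.19 in WT and was at background on both YYFF L4 arrays, so that its fall in YYFF has no exact size (interaction adjusted p = 1.4e-06). Ptn changed by 2.0 ± 0.22 in WT and by -4.81 ± 0.22 in YYFF, a difference of 6.80 ± 0.31 (adjusted p = 1.4e-06). Scara3 changed by -2.80 ± 0.12 in WT and by 2.19 ± 0.12 in YYFF, a difference of -5.0 ± 0.16 (adjusted p = 3.24e-07).

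Slpi and Ndn were not above background on any YYFF L4 or YYFF L0 array, so no change could be measured there. For Rsad2 the clones did not differ past the threshold: its change was -2.75 ± 0.13 in WT and -3.20 ± 0.13 in YYFF, a difference of 0.45 ± 0.19 (adjusted p = 0.12), with 1 of 2 YYFF L4 arrays above background. Cdkn1a changed by -1.67 ± 0.15 in WT and by -1.94 ± 0.15 in YYFF, a difference of 0.27 ± 0.21 (adjusted p = 0.402). Dio3 changed by -3.20 ± 0.16 in WT and was at background on both YYFF L4 arrays, so the clones cannot be compared in the size of its fall. Of the interferon list, 28 of 33 tested members passed the interaction. Its median change was -0.57 in WT and -2.72 in YYFF, with 16 lower members in WT and 31 in YYFF. Isg15 changed by -0.84 ± 0.14 in WT and by -2.95 ± 0.14 in YYFF, a difference of 2.11 ± 0.19 (adjusted p = 7.04e-05).

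**Figure D5:**
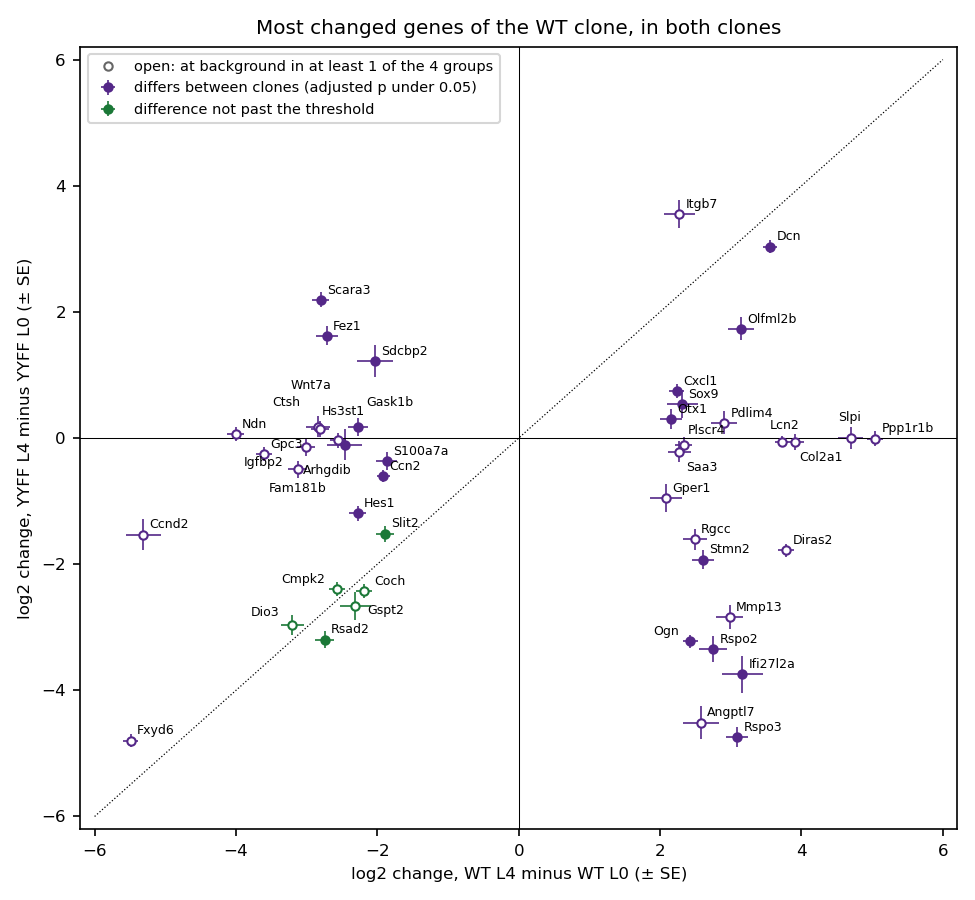
Log2 change with 4 laminin passages in the WT clone (horizontal axis) and in the YYFF clone (vertical axis), ± SE, for the most changed genes of the WT clone; the dotted line marks equal change. Purple genes passed the interaction test (adjusted p under 0.05) and green genes did not. Some purple genes, such as Slpi and Ndn, were at background on all YYFF L4 and YYFF L0 arrays, so that their YYFF change was not measured. Rspo3, Mmp13 and Ogn lie on the lower right, changed in opposite directions, and Rsad2 near the line. Open circles are genes at background on both arrays of at least 1 of the 4 groups, such as Mmp13, whose values on that axis have no exact size.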

How the data were processed

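Total RNA was measured on 12 Illumina bead arrays, 2 in each of 6 groups. Per the file headers, the non-normalized table deposited by the authors pairs the signal intensity of 25697 probes with a detection p-value, array by array. A processed table of linear intensities was deposited beside it. There, 11 of 12 arrays have 1 common distribution and 100% of the WT L0 replicate 2 values are the non-normalized ones, so that table served only as an alternative. The submitters' processing notes name limma, with no role.

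The non-normalized intensities were corrected for background by normexp at an offset of 16, the noise being estimated through the detection p-values. Quantile normalization and log2 followed (limma 3.58.1, R 4.3.3). Probes with a detection p under 0.05 on at least 2 of 12 arrays were kept (12974), and the brightest of each gene was tested, giving 8891 genes. The platform annotation gave 1 symbol to 23978 probes, none to 1719 and more than 1 to 0, and symbols were updated through RefSeq (GRCm38.p6; 23962 matched by Entrez ID and 9 by accession). A limma model with 1 coefficient per group over all 12 arrays (6 residual and 2.91 prior degrees of freedom) gave the contrasts WT L4 minus WT L0 and its difference from YYFF L4 minus YYFF L0, with eBayes and Benjamini-Hochberg adjustment. It was tested on simulated data. Where a gene is at background on both arrays of a group, its level there is a bound: the brighter mean is set against the mean of, per array, its own signal or the lowest one above background, whichever is higher, written as "at least N-fold".

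Groups and replicate numbers come from the titles. Whether replicates are separate cultures is not in the labels. The p-values then measure the spread between the arrays alone, possibly a technical one, and the number of arrays limits the precision. The arrays and the 47 gene lists were chosen with earlier results of these data known. Named genes are Itgb1, the 15 largest changes a direction that held with any 1 of the 4 arrays left out, the 8 largest a direction seen in 1 group only, up to 5 members a list and the members a list is known for, and Xist and Uty. Members named beyond this were chosen after their values were seen, and unnamed predicted genes were passed over. In promoter windows only the 250 bases before the start were searched, and some interferon genes had no window. The alternatives are those of the closing section.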

Additional observations from a re-analysis of the deposited data

Results flagged for a closer look

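Of the 145 genes whose change the text names, 92 changed in WT L4 and also differed between the clones in the interaction test (adjusted p at most 0.0476), with a level above background on some array of YYFF L4 or YYFF L0. Values are the WT change minus the YYFF change on the log2 scale, from 2 arrays a group, and 23.7% of all tested genes passed the same test. The named genes were mostly chosen for their WT change, which is part of this difference, and 143 of them were called in WT. Their share is therefore raised by the choice and cannot be compared with 23.7%. For 30 of the 92, both arrays of at least 1 of the 4 groups were at background, so that the value has no exact size. These 30 are given apart. A further 16 genes, among them Slpi, Ppp1r1b, Ndn and Gpc3, passed the test with all 4 YYFF arrays at background and are given no difference. Each genotype is 1 clone, so that genotype and clone cannot be told apart.

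Opposite calls in the clones were found for 34 genes. Those higher in WT L4 and lower in YYFF L4 include the R-spondins and pleiotrophin. The difference was 7.83 for Rspo3, 6.91 for Ifi27l2a, 6.80 for Ptn, 6.09 for Rspo2, 5.65 for Ogn, 4.54 for Stmn2 and 2.78 for Ppbp. Next came 2.59 for Osr2, 2.35 for Tgfb2, 2.09 for Col6a1, 1.92 for Ifi27, 1.41 for Timp3, 1.38 for Lox and 1.33 for Fgf10. With a group at background it was 7.09 for Angptl7, 5.89 for Sfrp2, 5.83 for Mmp13, 5.56 for Diras2 and 5.37 for Epha3. Likewise there were 5.23 for Itga11, 4.10 for Rgcc, 3.03 for Gper1, 2.31 for Mmp3 and 1.94 for Wnt5b. For genes lower in WT L4 and higher in YYFF L4, such as Scara3 and Dusp1, the difference is negative. It was -5.0 for Scara3, -4.33 for Fez1, -3.26 for Sdcbp2 and -3.26 for Dusp1. It was further -2.42 for Hoxa7, -2.08 for Hoxa5, -1.45 for Gdnf, -1.42 for Igf2r and -1.37 for Pdcd6ip. With a group at background the value was -3.43 for Gap43.

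Past the threshold in WT and not in YYFF were 21, which does not show that YYFF was unchanged. Among genes higher in WT L4 the difference was 2.29 for Prelp, 1.85 for Otx1, 1.78 for Sox9, 1.70 for Cd82, 1.57 for Nbl1, 1.03 for Emilin1 and 0.91 for Cdkn2c. With a group at background it was 3.97 for Col2a1 and 2.49 for Saa3. Among genes lower in WT L4 it was -2.45 for Gask1b, -2.36 for Arhgdib, -1.67 for Foxc2, -1.50 for S100a7a, -1.0 for Itga3 and -1.0 for Bdnf. Lower genes with a group at background had -1.92 for Pmaip1, -1.77 for Sema7a, -1.40 for Krt19, -1.28 for Foxd1, -1.08 for Il11 and -0.89 for Adm.

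Called in the same direction in both clones were 37. In genes higher in both the difference was 1.49 for Cxcl1, 1.41 for Olfml2b, -1.09 for Cd14, -1.02 for Ndrg1, -0.81 for S100a1, 0.53 for Dcn and -0.47 for Srxn1. Where a group was at background there was -1.28 for Itgb7. In genes lower in both, among them the interferon-induced Usp18 and Isg15, a positive value means the larger fall in YYFF. Measured in all 4 groups were 3.82 for Usp18, 3.18 for Unc5c, 2.32 for Oas1g, 2.11 for Isg15, 1.95 for Tap2 and 1.69 for Lims2. Then came -1.31 for Ccn2, 1.21 for Trp53inp1, -1.08 for Hes1, 0.87 for Mdm2, 0.86 for Unc5b and -0.79 for Ephx1. Nearer to 0 were 0.79 for Tagln, -0.78 for Oasl1, 0.76 for Nid2, -0.62 for Ccnd1, -0.58 for Inhba, 0.48 for Smarca2 and 0.45 for Ifit3. With a group at background the values were -3.78 for Ccnd2, 2.70 for Parp14, 2.52 for Wnt5a, 2.52 for Psmb9 and 1.67 for Vegfc. Further such values were 1.65 for Serpinb2, 1.60 for Snrpn, 1.42 for Igf2, -0.93 for Axin2 and -0.69 for Fxyd6.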

How the results depend on the processing

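The 1376 genes called changed in WT L4 became 683 with median scaling in place of quantile normalization, of which 656 were among the 1376, and 490 when the 4 compared arrays were fitted alone, of which 474 were. Leaving out each compared array in turn gave 740 to 928 genes. The other alternatives gave 1199 to 1617: no background correction 1513, the authors' processed values 1486, a filter to probes above background on all 4 arrays 1314 of 6974, no filter 1354 of 16590, the mean of detected probes 1301, and the replicate numbers as a block 1617 (titles) and 1199 (descriptions). The numbers share no stated origin, and same-numbered arrays of WT L4 and WT L0 deviated with r = 0.18 by title and r = -0.18 by description, which with 2 arrays a group does not pair them. The 2109 genes that differed between the clones became 1295 with median scaling, 1512 to 1869 with 1 array left out, and 2407 with the title numbers as a replicate block. The cause of these moves was not tested, apart from the fewer arrays of the fits that leave arrays out, where the lone sample of a group is assumed to vary like the others. Of 202 called genes checked by name, none changed direction under any alternative; 159 stayed past the threshold with median scaling and 136 with the 4 arrays alone. Uty, which was not called, turned to -0.0316 with the authors' values, and lay between -0.0289 and 0.129 with 1 array left out. Interferon list members lower in WT L4 numbered 10 to 18 over the alternatives and p53 targets 8 to 12. The chromosome medians, added after seeing the data, kept their sign throughout, and with no filter they shrank to -0.06 on chromosome 12 and 0.04 on chromosome 15. With 2 arrays a group, small changes were not detectable: the smallest called change was 0.31 on the log2 scale.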
